A study of Mus musculus with 768 samples.

Results

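Ecel1 and Prss56, neighbouring genes on mouse chromosome 1 that each encode a peptidase, were followed through cochlear organoid culture. They are 2 of the 52636 genes in the deposited tables and were taken by symbol, for their level in each culture, the share of cells with a read and detection in the same cell. The pair was proposed with these values known, high early in culture and scarce later, so their levels, shares and co-detection are given as a description without a test.

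Ecel1 encodes endothelin-converting enzyme-like 1, a membrane-bound zinc metallopeptidase of the neprilysin family that is known for its induction in neurons after nerve injury and for its role in motor axon branching. Prss56 encodes a secreted trypsin-like serine protease that is known from Müller glia of the retina, where it affects the growth of the eye, and from boundary cap cells of the peripheral nervous system. Zinc metallopeptidases and serine proteases cut peptide bonds by different chemistry, so the 2 neighbours are not relatives by sequence family.

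The cells came from Fgfr3-CreERT2/Ai14-tdTomato/Sox2-GFP mice on postnatal day 2. The greater epithelial ridge (GER) is the epithelium on the inner side of the developing hair cells, and its cells were enriched by flow cytometry and grown as organoids. After trypsin treatment, cells were collected by hand through a glass pipette and sequenced by SmartSeq2, which reads whole transcripts without molecular identifiers or strand information. Organoids were taken on day 1 (3 cultures), day 3 (3 cultures) or day 7 (5 cultures), all in the same DMEM/F-12 medium with N-2 and B-27 supplements, EGF, FGF2, IGF1, CHIR99021, valproic acid, 2-phospho-L-ascorbic acid and the TGFβ receptor inhibitor 616452. All groups carried the same 3 transgenes and met the same additives, and no freshly isolated or untreated group was analysed here. Fgfr3-CreERT2 and Ai14 together report Cre activity under the Fgfr3 promoter, and Sox2-GFP reports Sox2. The labels do not say whether cultures came from separate animals, so the spread between cultures may be technical in part.

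After filtering, 92.6% of the cells were used, and the summed reads of a culture ran from 26391412 to 72483565. At least 96.3% of the cells of each class described below, with or without a read of either gene, had reads of Epcam or Cdh1, which mark epithelium. All 9 GER and prosensory markers had reads on every day, and their summed level ran from 9225 to 13310 CPM (reads scaled to a common library total) over the day 1 cultures, from 3780 to 7000 on day 3 and from 1918 to 3982 on day 7. The list of 8 neuronal markers ran from 66.2 to 137.4 CPM, from 37.6 to 69.4 and from 12.1 to 30.5, and the list of 8 Schwann and boundary cap cell markers from 94.8 to 105.2, from 57.5 to 93.4 and from 97.9 to 391.3. In that last list Foxd3 had no read on any day. The 4 epithelial markers ran from 3091 to 4833 CPM, from 2894 to 4755 and from 1546 to 2624, the 4 immune markers from 4.09 to 9.58, from 2.04 to 3.19 and from 0.363 to 1.92, and the 8 hair cell markers from 30.8 to 70.3, from 46.9 to 183.7 and from 21.3 to 39.02. The mesenchyme and melanocyte lists overlapped between days 1 and 7, and the endothelial list reached at most 0.452 CPM. The immune list was thus lower on each later day, as were Ecel1 and Prss56. The GER and neuronal ranges also moved lower, but the GER range overlapped between days 3 and 7 and the neuronal range between days 1 and 3. The epithelial list was lower on day 7, and the hair cell list reached its highest level on day 3. The part of these lists in the levels below was not tested. No pair of cell libraries held identical values.

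In GENCODE M21 (GRCm38), Ecel1 (ENSMUSG00000026247.13) lies on the minus strand at chr1:87147655-87156521 and Prss56 (ENSMUSG00000036480.9) on the plus strand at chr1:87183313-87188405. The genes are arranged head to head. Their starts are 26792 bases apart, with 0 annotated genes in between. Merged exons cover 3500 bases for Ecel1 and 2180 bases for Prss56. RefSeq extends the 3′ end of Ecel1 across the lincRNA Gm29374, so reads there could be assigned to either. Because the 2 genes were chosen together as neighbours with parallel levels, their RefSeq promoters (GRCm38.p6, 250 bases before to 50 after each start, 2 of 2 genes matched) are shown 5′ to 3′ on the strand of the gene, with matches to any of 8 searched motifs in capitals. The windows lie at chr1:87156307-87156606 (minus strand) and chr1:87183064-87183363 (plus strand). The GENCODE start of Ecel1, 87156521, lies upstream of the RefSeq start and inside the window, so by GENCODE much of that window is transcribed. For Prss56 the 2 annotations place the start almost alike.
Ecel1: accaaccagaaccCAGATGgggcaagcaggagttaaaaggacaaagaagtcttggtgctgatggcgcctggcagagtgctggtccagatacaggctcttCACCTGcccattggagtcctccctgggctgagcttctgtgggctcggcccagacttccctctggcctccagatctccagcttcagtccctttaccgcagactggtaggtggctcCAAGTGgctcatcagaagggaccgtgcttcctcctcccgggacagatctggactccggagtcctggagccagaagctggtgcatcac
Prss56: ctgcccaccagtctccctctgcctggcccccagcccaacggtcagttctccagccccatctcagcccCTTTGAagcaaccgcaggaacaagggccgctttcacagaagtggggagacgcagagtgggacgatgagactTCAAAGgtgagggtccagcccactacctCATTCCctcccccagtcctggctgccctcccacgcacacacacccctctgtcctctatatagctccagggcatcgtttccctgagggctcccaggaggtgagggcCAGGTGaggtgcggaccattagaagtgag

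GC content was 59% in the Ecel1 window and 61.7% in the Prss56 window, with 6 and 8 CpG dinucleotides, against medians of 52.7% and 7 over 32851 mouse promoters of the same length. On both strands, the E-box CANNTG occurred 3 times in the Ecel1 window and 1 time in the Prss56 window, and 72.3% of all promoters hold it. The TCF/LEF core CTTTGA occurred 2 times, once on each strand, in the Prss56 window and 0 times in the Ecel1 window, and 16% of promoters hold it. The TEAD core GGAATG occurred 1 time for Prss56 and 0 times for Ecel1, against 14.7% of promoters. Neither window held the AP-1 site TGANTCA (7.81% of promoters), the CRE TGACGTCA (1.79%), the TATA box TATAAA (13.6%), the GC box GGGCGG (35.7%) or the RBPJ core TGGGAA (25.6%). No 2 of the marked matches overlap, and the E-box was the only searched motif that both windows held.

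Ecel1 reads were abundant on day 1, lower on day 3 and nearly gone by day 7. As CPM of the summed reads with TMM scaling, the level was 93.2, 64.6 and 81.7 in the day 1 cultures. On day 3 it was 5.32, 45.5 and 29.7 CPM. On day 7 it was 0, 0, 0.361, 0.294 and 0.0267 CPM. The lowest day 1 culture lay above the highest day 3 culture, and the lowest day 3 culture above all 5 day 7 cultures, while day 3 culture 1 had far less than the other two. The means were 79.8 ± 14.4 CPM for day 1 (SD, n = 3), 26.8 ± 20.2 for day 3 (n = 3) and 0.136 ± 0.177 for day 7 (n = 5). These rest on 9454, 4198 and 42 reads.

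Prss56 followed the same order of days. Its level was 72.8, 35.2 and 114.3 CPM in the day 1 cultures. On day 3 it was 0.973, 12.5 and 2.54 CPM. On day 7 it was 0, 0, 0.921, 0.648 and 0 CPM. Again the 3 days did not overlap, although the highest day 7 culture (0.921) came within reach of the lowest day 3 culture (0.973), so these neighbours in the order do not differ beyond their spread. The means were 74.1 ± 39.6 CPM (SD, n = 3), 5.33 ± 6.24 (n = 3) and 0.314 ± 0.440 (n = 5), from 7749, 832 and 95 reads.

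**Figure D1:**
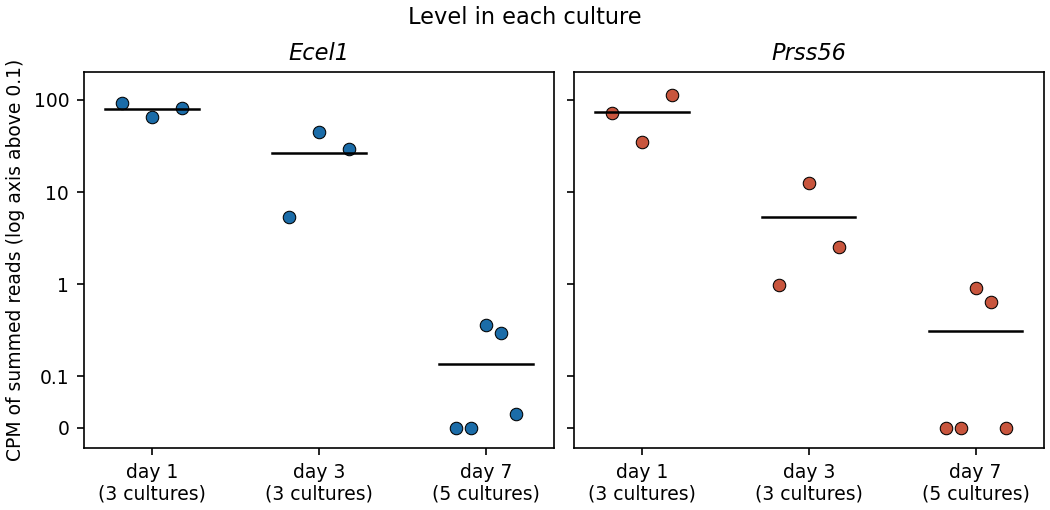
CPM of summed reads (y axis, logarithmic above 0.1) of Ecel1 (left) and Prss56 (right) in each culture by day. Points are cultures in replicate order and lines are day means, and no culture of a later day reaches the lowest culture of an earlier day for either gene.

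Fitted over the 11 cultures, the log2 difference of Ecel1 was -1.57 (SE 0.82) for day 3 against day 1, -7.44 (SE 0.89) for day 7 against day 3 and -9.01 (SE 0.93) for day 7 against day 1. For Prss56 it was -3.80 (SE 1.3), -3.98 (SE 1.13) and -7.77 (SE 1.27). Here and below, SE is the size of the log2 difference divided by the square root of its edgeR F statistic. It is thus approximate, and no test of the pair is read from it. For Prss56, day 7 against day 3 came to -2.38 without day 3 culture 2. Of the 17466 genes tested, cultures did not overlap and were lower in 8.11% for day 3 against day 1, in 5.14% for day 7 against day 3 and in 9.06% for day 7 against day 1. The 2 genes were chosen from these contrasts, so nothing is read from their place in those shares. The 2 deposited files, which may be a batch, each held cultures of all 3 days. In the first file Ecel1 ran from 93.2 CPM on day 1 to 5.32 on day 3 and at most 0.361 on day 7, and in the second from 64.6 and 81.7 to 45.5 and 29.7 and then 0.0267. Prss56 ran from 72.8 to 0.973 and at most 0.921 in the first file, and from 35.2 and 114.3 to 12.5 and 2.54 and then 0 in the second. By these levels the order of days thus held within each file. For Prss56 in the first file it rests on 0.973 against 0.921 CPM, and other measures do not keep it. As a mean over cells, day 3 culture 1 had 0.837 CPM and day 7 culture 3 had 0.903. Without the top cell and without TMM scaling, day 3 culture 1 had 0.266 CPM and day 7 culture 4 had 0.318.

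Scaled per kilobase of exon, which allows levels of the 2 genes to be compared, Ecel1 averaged 22.8 ± 4.11 CPM per kb and Prss56 34 ± 18.2 on day 1 (SD, n = 3). On day 3 the averages were 7.67 ± 5.79 and 2.45 ± 2.86 CPM per kb. The ratio of the Ecel1 to the Prss56 level per kb was 0.798, 1.14 and 0.445 in the day 1 cultures and 3.41, 2.27 and 7.28 in the day 3 cultures. All 3 day 3 cultures thus lay further towards Ecel1 than any day 1 culture, but this did not hold without the cells with hair cell transcripts described below. The ratio was then 0.724, 1.14 and 0.445 in the day 1 cultures and 3.35, 0.0526 and 2.39 in the day 3 cultures, so that day 3 culture 2 fell below all 3 day 1 cultures. In the 2 day 7 cultures with reads of both genes the ratio was 0.244 and 0.283.

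Fewer cells held a read of either gene on later days. With every cell thinned at random to 200000 reads, Ecel1 was read in 31 of 52, 49 of 85 and 17 of 38 cells of the day 1 cultures (59.6%, 57.6% and 44.7%). On day 3 it was read in 8 of 84, 5 of 66 and 14 of 72 cells (9.52%, 7.58% and 19.4%). On day 7 it was read in 0 of 39, 0 of 37, 7 of 69, 5 of 78 and 1 of 75 cells (0%, 0%, 10.1%, 6.41% and 1.33%). Day 1 cells thus carried the transcript in 54% ± 8.08 of cases at this depth (SD, n = 3), day 3 cells in 12.2% ± 6.37 (n = 3) and day 7 cells in 3.58% ± 4.52 (n = 5). The highest day 7 culture lay within the range of day 3, so by this measure days 3 and 7 overlapped. Without thinning the means were 53.2%, 14.3% and 5.65%.

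Prss56 was read in fewer cells than Ecel1 in each culture of days 1 and 3. On day 1 it was read in 17 of 52, 21 of 85 and 10 of 38 cells (32.7%, 24.7% and 26.3%). On day 3 it was read in 2 of 84, 4 of 66 and 3 of 72 cells (2.38%, 6.06% and 4.17%). On day 7 it was read in 0 of 39, 0 of 37, 2 of 69, 5 of 78 and 0 of 75 cells (0%, 0%, 2.90%, 6.41% and 0%). The means were 27.9% ± 4.22 on day 1 (SD, n = 3), 4.20% ± 1.84 on day 3 (n = 3) and 1.86% ± 2.84 on day 7 (n = 5), and days 3 and 7 overlapped here too. A count of 0 allows a share of up to 7.69% in day 7 culture 1, 8.11% in culture 2 and, for Prss56, 4% in culture 5, as 3 cells of the total. The two-sided exact intervals of the same shares, drawn in the plot of shares, reach 9.03%, 9.49% and 4.80%. The exact 95% Clopper-Pearson intervals of single cultures were wide, from 45.1% to 73% for Ecel1 in day 1 culture 1 and from 4.18% to 19.8% in day 7 culture 3. Intervals and floors cover counting error only, since reads without molecular identifiers are not independent molecules.

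**Figure D2:**
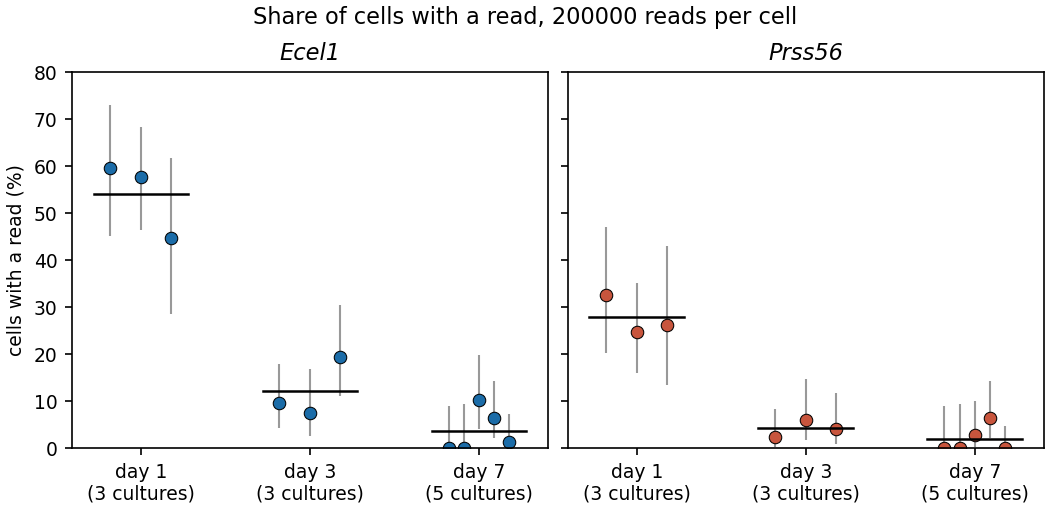
Percent of cells with a read (y axis) of Ecel1 (left) and Prss56 (right) in each culture by day, all cells thinned to 200000 reads. Points are cultures, grey bars exact 95% intervals and lines day means; day 1 stands above days 3 and 7 for both genes, and days 3 and 7 overlap.

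Cells that carried Ecel1 also held fewer reads of it later. The median was 58.5 reads over the 100 day 1 cells with a read, 23 over 33 day 3 cells and 1 over 21 day 7 cells, of which 17 had only 1 or 2 reads. For Prss56 the medians were 46.5 reads over 50 cells, 14 over 11 and 5 over 8. At least 100 reads of Ecel1 were present in 31, 6 and 0 cells on days 1, 3 and 7, and at least 100 of Prss56 in 14, 1 and 0 cells.

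Single cells held much of the signal, more so for Prss56. On day 1 the cell with the most Prss56 reads held 47.3%, 54.7% and 68.1% of the reads of its culture, whereas the top Ecel1 cell held 13.6%, 9.22% and 42.8%. On day 3 one cell of culture 2 held 92.7% of the Ecel1 reads and another cell 93.4% of the Prss56 reads. With the top cell of each culture left out and without TMM scaling, mean Ecel1 was 64.4, 6.64 and 0.0896 CPM on days 1, 3 and 7, and mean Prss56 31.7, 0.658 and 0.0854 CPM. The order of days was the same, and with all cells Prss56 had 75.2 CPM on day 1 on this scale.

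On day 1 the 2 transcripts met in the same cell more often than the product of their shares. Both were read in 35 thinned cells, Ecel1 alone in 62, Prss56 alone in 13 and neither in 65. The product of the shares gives 26.7 cells with both, so the ratio of observed to expected was 1.31. By culture the ratio was 1.28, 1.32 and 1.34. Of the cells with Prss56, 72.9% also had Ecel1, against 48.8% of the cells without Prss56. Seen from the other gene, 36.1% of the Ecel1 cells had Prss56, against 16.7% of the cells without Ecel1. Cells with Ecel1 were slightly deeper before thinning, with a median of 752000 reads against 682500 without, while cells with Prss56 had 709800 against 720300. For both genes, cells with a read had more genes detected, with medians of 7178 against 6659 (Ecel1) and 7086 against 6962 (Prss56). Their median mitochondrial share was lower, at 2.79% against 3.52% and 2.90% against 3.08%. The part of such cell quality in the ratio of 1.31 was not tested.

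All 14 day 1 cells with at least 100 Prss56 reads also had an Ecel1 read, and 7 of them had at least 100. In the reverse direction, 9 of the 31 day 1 cells with at least 100 Ecel1 reads had a Prss56 read. In day 1 cultures 2 and 3 the same cell was highest for both genes, with 388.8 CPM of Ecel1 and 1256 of Prss56 in culture 2 and 1039 and 2310 CPM in culture 3. In day 1 culture 1 the top Prss56 cell (1394 CPM) held 238.6 CPM of Ecel1, and the top Ecel1 cell (690.6 CPM) held 29.96 CPM of Prss56. The cells richest in Prss56 on day 1 thus carried Ecel1 as well, but many cells rich in Ecel1 lacked Prss56.

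After day 1 the overlap was small in number. On day 3 both genes were read in 3 thinned cells, with 1.08 expected, and the ratio was 5.25, 0 and 3.43 in the 3 cultures. On day 7 both were read in 3 cells, all of culture 4, with 0.523 expected. None of the 6 day 3 cells with at least 100 Ecel1 reads had a Prss56 read, and the 1 cell with at least 100 Prss56 reads had no Ecel1 read. On average 4.20% of thinned day 3 cells had Prss56 and 12.2% had Ecel1. Such counts among so few cells are thus no sign that the genes exclude each other.

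**Figure D3:**
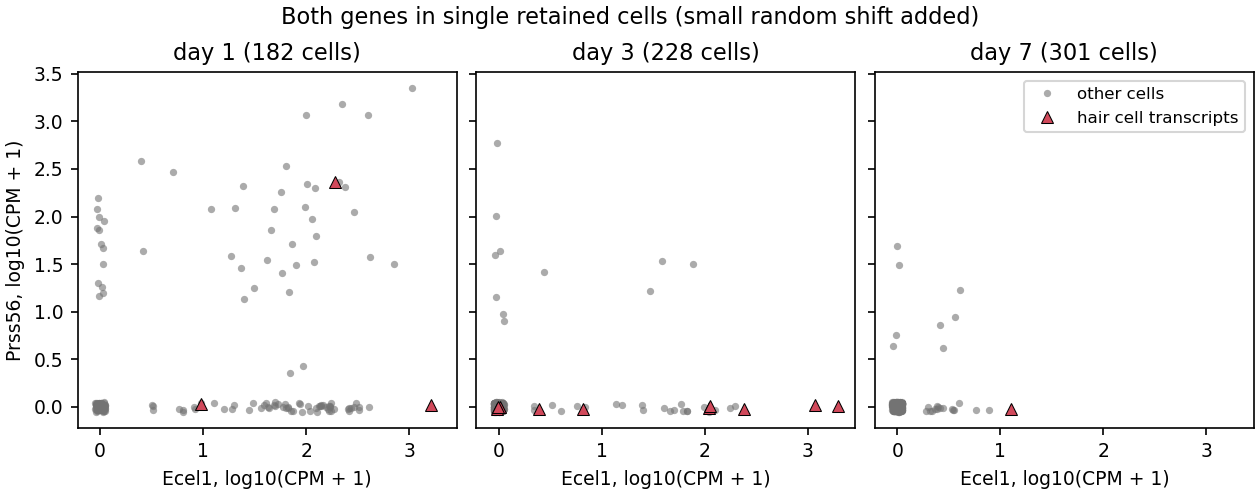
Prss56 against Ecel1 in every retained cell on days 1, 3 and 7, each as log10(CPM + 1) with a small random shift so that cells at 0 can be seen. Red triangles are cells with hair cell transcripts, and on day 1 many cells hold both genes. On day 3, 4 of the 6 cells with at least 100 Ecel1 reads are such triangles. None of the 6 holds Prss56, which few day 3 cells hold, so this is no sign of exclusion.

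Pooled over the 3 cultures, most of the day 3 Ecel1 reads lay in a few cells with hair cell transcripts, but this did not hold in culture 1. A cell was counted so when at least 2 of the transcription factors Atoh1, Gfi1 and Pou4f3, the motor protein Myo7a and the calcium buffer Pvalb had a read. This class was set after values of these cells had been seen, and it held 3 cells on day 1, 10 on day 3 and 1 on day 7. Of all Ecel1 reads these cells held 5.13%, 78.8% and 23.8% on the 3 days. Of the 4198 day 3 reads, 2160 lay in 1 such cell of culture 2. They held 2.08% of the Prss56 reads on day 1 and 0% on days 3 and 7. On day 3, 6 of the 27 thinned cells with Ecel1 were of this class (22.2%), against 4 of the cells without it (2.05%). Of the 9 cells with Prss56, 0 were of this class, against 4.7% of the cells without Prss56. With so few cells, this 0 does not set Prss56 apart from the class. Of the 6 day 3 cells with at least 100 Ecel1 reads, 4 were of this class.

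The top Ecel1 cell of day 3 culture 2 had 2160 Ecel1 reads, reads in 8 of the 8 hair cell markers and 0 Prss56 reads. The top cell of day 3 culture 3 had 861 Ecel1 reads, 7 of the 8 markers and 0 Prss56 reads. The top cell of day 3 culture 1 had 105.5 CPM of Ecel1, 0 of the 8 markers and 0 Prss56 reads. The 8 markers include all genes that define the class, so these marker counts are partly fixed by the definition. Without the class, Ecel1 stood at 88.5, 62.8 and 81.7 CPM in the day 1 cultures and at 5.64, 1.03 and 10.0 CPM on day 3, without TMM scaling. With it, the day 3 cultures stood at 5.54, 42.9 and 28.8 CPM on this scale, so culture 1 hardly changed. The day 3 mean without the class was 5.57 ± 4.498 CPM (SD, n = 3), and that of Prss56 was 5.298 ± 6.05 CPM. The log2 difference of Ecel1 between day 3 and day 1 came to -3.76 without these cells, against -1.57 with them, and that of Prss56 to -3.72 against -3.80. That fit left out the class on all 3 days. Other omissions set the 2 genes apart: without the top cell of each culture the difference was -3.05 for Ecel1 and -5.49 for Prss56, and without day 3 culture 2 it was -2.18 and -5.39.

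**Figure D4:**
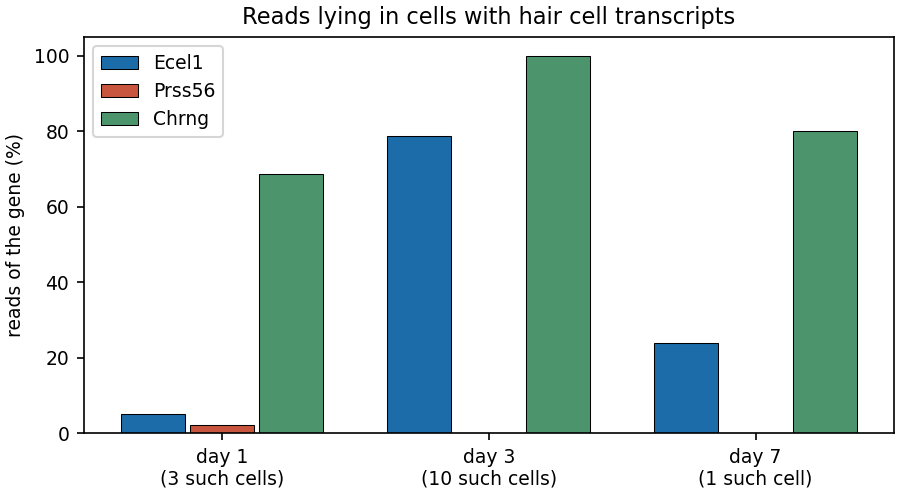
Percent of the reads of Ecel1, Prss56 and Chrng (y axis, from 0) that lay in cells with hair cell transcripts on days 1, 3 and 7, over all cultures of a day. On day 3 the 10 such cells held 78.8% of the Ecel1 reads, 99.9% of the Chrng reads and none of the Prss56 reads. Few day 3 cells held Prss56, so its absence from these 10 cells is no sign of exclusion.

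Whether the 2 genes were read in particular cells was also tested against 2 features that had not served to choose them, over the 6 cultures of days 1 and 3. Cells counted as cycling when at least 3 of the mitosis genes Birc5, Ccnb2, Cdk1, Mki67, Top2a and Tpx2 had a read. Ecel1 was read in 31.4% of cycling and 35.1% of other cells, a mean difference of -3.75 ± 8 points (SD, n = 6; exact two-sided sign-flip permutation test over cultures, p = 0.09375, adjusted over the 4 tests 0.1875). It was lower in 5 of 6 cultures, but the difference was -0.488 points without day 3 culture 3. For Prss56 the shares were 18.4% and 15.7%, and the difference of 2.68 ± 18 points was higher in 4 of 6 cultures (exact permutation p = 0.75, adjusted 0.75).

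Cells with a read of tdTomato, the reporter transcript, had Prss56 in 23.9% of cases and other cells in 13.6%. This difference of 10.3 ± 7.98 points was higher in 6 of 6 cultures (exact sign-flip permutation p = 0.03125, the smallest that 6 cultures allow, adjusted 0.125). With 6 cultures the adjusted value could pass only if at least 3 of the 4 tests reached that smallest p, so this miss says nothing about tdTomato cells. Ecel1 was read in 39.1% of tdTomato cells and 31.2% of the others, a difference of 7.94 ± 17.4 points that was higher in 5 of 6 cultures (exact permutation p = 0.34375, adjusted 0.458). In unthinned cells the Ecel1 difference was 15 ± 11.1 points, higher in 6 of 6 cultures (exact permutation p = 0.03125, adjusted 0.0625). In day 1 culture 1 Ecel1 was read in 10 of 11 tdTomato cells, whereas in culture 3 it was read in 2 of 6.

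Around the pair, the annotation lists 36 other genes within 500 kb, 14 of them protein coding, and 18 passed the filter on low counts. Between day 1 and day 7, 1 of the 18 was called lower and 0 higher (edgeR quasi-likelihood test, Benjamini-Hochberg adjusted p under 0.05), against 7.11% of all genes called, 3.56% lower and 3.55% higher. Between day 3 and day 7, 1 was called lower and 0 higher, against 0.968% of all genes called, 0.784% lower and 0.183% higher. Between day 1 and day 3, 0 of the 18 were called, against 0.0115% of all genes (all higher, 0% lower); 1 had an unadjusted p under 0.05, and DESeq2 and limma called 0. The median log2 difference of the 18 from day 1 to day 7 was -0.50, beside 0.00282 over all genes. Of the 18, 13 lay below 0 from day 1 to day 7, 3 had an unadjusted p under 0.05, DESeq2 called 2 and limma 1. From day 3 to day 7, 2 had an unadjusted p under 0.05, DESeq2 called 1 and limma 0. For day 7 against day 1 the 1 call of edgeR is near the share of all genes, whereas for day 7 against day 3 it lies above that share. Both calls are of the same gene, so neither is a result about the neighbourhood.

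The called neighbour was Chrng, the gamma subunit of the muscle-type nicotinic acetylcholine receptor. It starts 4587 bases after the end of Chrnd, which encodes the delta subunit and itself starts 2202 bases after the end of Prss56. Chrng was at 10.3, 1.69 and 2.01 CPM on day 1, at 0.0785, 10.2 and 3.96 on day 3 and at 0, 0, 0.0181, 0.0589 and 0 on day 7. Days 1 and 3 overlapped fully and day 7 lay below both. It fell from day 1 to day 7 by 7.85 on the log2 scale (SE 1.49, edgeR adjusted p = 0.0102, from 2.69e-07 to 0.0746 over 20 alternatives). It fell from day 3 to day 7 by 7.88 (SE 1.495, edgeR adjusted p = 0.0308, from 1.15e-06 to 0.404 over 20 alternatives). Leaving out culture 2 or 3 of day 3, or culture 1, 2, 3 or 5 of day 7, ended the second call. Chrng reached the minimum CPM of the filter in 3 cultures of day 1, 2 of day 3 and 0 of day 7, so it was tested only because it was high on the earlier days, and its calls are given with that limit.

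Chrng reads lay in few cells, and 2 of the 6 thinned cells with a read on day 1, 5 of 5 on day 3 and 1 of 1 on day 7 held hair cell transcripts. A cell with hair cell transcripts in day 1 culture 1 held 1648 CPM of Chrng and 1771 of Ecel1, and the top Ecel1 cell of day 3 culture 2 held 484.4 CPM of Chrng and 64.5 of Chrnd. On days 1, 3 and 7 the class held 68.6%, 99.9% and 80% of the Chrng reads, and without it Chrng no longer passed the filter. Ecel1 was read in 6 of the 6 Chrng cells on day 1 and 4 of 5 on day 3, and Prss56 in 3 of 6 and 0 of 5. On day 3 the shares gave only 0.246 expected cells with Prss56 and Chrng, so that 0 says nothing about Prss56.

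Chrnd had 1.02, 2.42 and 0 CPM on day 1, 0, 1.31 and 0.0194 on day 3 and 2 reads in 1 culture on day 7, and was not called (day 7 against day 1, edgeR adjusted p = 0.073, from 0.0391 to 0.458 over alternatives). Beyond Chrng, Eif4e2, a cap-binding protein of translational repression, stood at 83.9 ± 12.5 CPM on day 1 (SD, n = 3), 113.7 ± 15.96 on day 3 and 90.2 ± 8.91 on day 7 (n = 5). Efhd1, a mitochondrial calcium-binding protein, stood at 763.3 ± 226.1, 617.6 ± 128.8 and 536.2 ± 133.8 CPM, and Gigyf2, a partner of Eif4e2, at 60.5 ± 2.41, 59.9 ± 12.7 and 58.5 ± 21.9. Kcnj13, a potassium channel, had 3.34 ± 3.71, 0.684 ± 0.327 and 1.655 ± 1.2 CPM. On the side of Ecel1, Dis3l2, an RNA exonuclease, had 13.5 ± 8.53, 22.8 ± 6.86 and 31.4 ± 15.1 CPM and Nppc, the C-type natriuretic peptide, 1.18 ± 0.820, 0.776 ± 0.486 and 0.188 ± 0.236. None of these was called in any of the 3 comparisons, nor was Ngef or any of the 9 predicted genes past the filter.

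**Figure D5:**
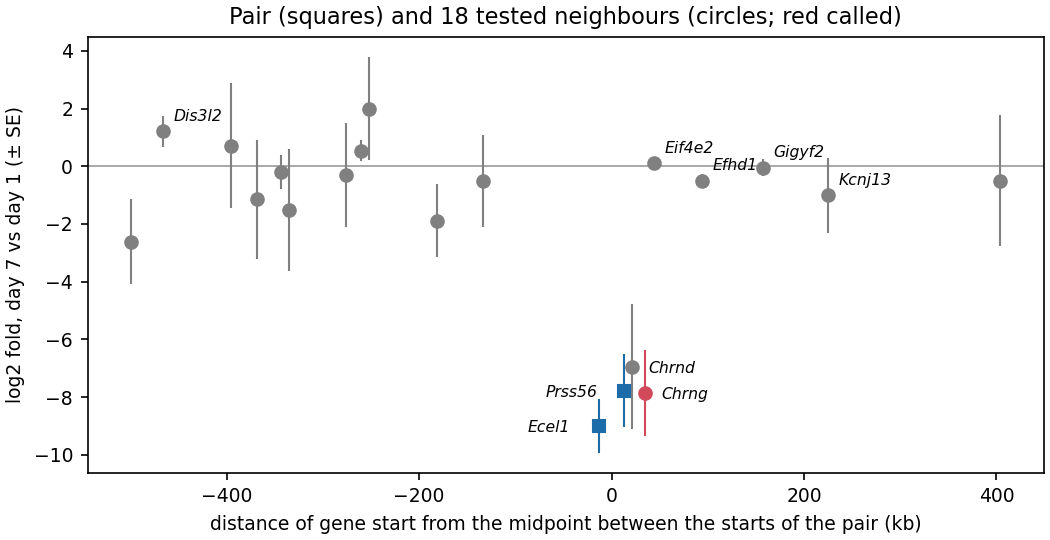
Fitted log2 difference of day 7 against day 1 (y axis, bars approximate SE from the F statistic) of Ecel1 and Prss56 (squares) and of the 18 tested genes within 500 kb (circles). The x axis gives the distance of the gene start from the midpoint between the starts of the pair (kb). Chrng (red) is the 1 called neighbour, the Chrnd point rests on 2 reads on day 7, and the other circles lie above -3.

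Of 6 other neprilysin family genes, 4 were tested and 0 were called in any of the 3 comparisons, 0 had an unadjusted p under 0.05 in edgeR, and DESeq2 and limma called 0. With 7.11%, 0.968% and 0.0115% of all genes called, a count of 0 among 4 says nothing about the family. Ece1, an endothelin-converting enzyme, was highest at 49.3 ± 4.86 CPM on day 1 (SD, n = 3), 41.4 ± 16.6 on day 3 (n = 3) and 37.3 ± 6.82 on day 7 (n = 5). Ece2 had 24.5 ± 8.17, 18.9 ± 3.97 and 18.8 ± 6.89 CPM. Their median log2 difference from day 1 to day 7 was -0.26, beside 0.00282 over all genes.

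Of 28 other trypsin-type serine proteases, 18 were tested, and 1 was called higher and 1 lower for day 7 against day 1, near the 3.55% and 3.56% of all genes. Plat, tissue plasminogen activator, rose from 142.25, 229.3 and 174.4 CPM on day 1 to between 289.9 and 611.9 on day 7, a log2 difference of 1.304 (SE 0.27, edgeR adjusted p = 0.0144, from 0.000103 to 0.0888 over 21 alternatives). Leaving out day 1 culture 1 or 3 lost that call. Klk8, a kallikrein-related peptidase, was at 22.5, 33.6 and 36.5 CPM on day 1 and from 2.44 to 14.2 on day 7, and it fell by 1.94 (SE 0.51, adjusted p = 0.0407, from 0.00235 to 0.132). The Klk8 call was lost in 7 of 11 fits that left out 1 culture. Against day 3, Plat was called higher on day 7 (log2 difference 1.31, SE 0.27, adjusted p = 0.0418) and Prss22 lower (adjusted p = 0.0475), each lost in 9 of 11 such fits, where 0.183% of all genes were called higher and 0.784% lower. Prss22, a tryptase-like protease, was at 0, 0.269 and 0 CPM on day 1, at 6.42, 2.42 and 0.602 on day 3 and had 2 reads in 1 culture on day 7. Its CPM reached the minimum of the filter in 3 cultures of day 3, 1 of day 1 and 0 of day 7, so it was tested only because it was high on day 3, and its call is no support for a change. From day 1 to day 3, 0 of the 18 were called, 3 had an unadjusted p under 0.05 in edgeR, and DESeq2 and limma called 0. The median log2 difference from day 1 to day 7 was -0.64.

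Genes known to rise in neurons after axon injury, the setting in which Ecel1 is best known, were called in both directions. Of 20 such genes 17 were tested, and from day 1 to day 7, 1 was called higher and 4 lower, beside 3.55% and 3.56% of all genes. Sprr1a, a small proline-rich protein, was at 140.2, 99.7 and 76.6 CPM on day 1, 37.2, 42.7 and 47.3 on day 3 and 0, 0.0330, 1.01, 0.427 and 0 on day 7. It fell by 8.37 (SE 0.95, edgeR adjusted p = 0.00103, at most 0.00540 over 21 alternatives) from day 1 to day 7 and by 7.06 (SE 0.91, adjusted p = 0.00451, at most 0.0255) from day 3. Sprr1a reached the minimum CPM of the filter in 3 cultures of day 1, 3 of day 3 and 2 of day 7. It was thus tested only because it was high on the earlier days, and its calls are given with that limit. Gap43, a growth cone protein, fell to 2.001 ± 1.695 CPM on day 7 (SD, n = 5) from 23.5 ± 5.34 on day 1 (n = 3), by 3.56 on the log2 scale (SE 0.60, adjusted p = 0.00594, at most 0.0449).

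Hspb1, a small heat shock protein, fell by 1.79 (SE 0.40, edgeR adjusted p = 0.0199, at most 0.253), and leaving out day 1 culture 2 or 3 ended its call. Tubb3, a tubulin of neurons, fell by 2.80 (SE 0.77, adjusted p = 0.047, at most 0.192), and its call was lost in 9 of 11 fits leaving out 1 culture. Jun, a subunit of AP-1, went the other way, from 179.2 ± 65.3 CPM (SD, n = 3) to 557.6 ± 111.6 (n = 5), a log2 difference of 1.64 (SE 0.28, adjusted p = 0.00586, at most 0.301). Against day 3, Sprr1a and Gap43 (adjusted p = 0.027) were called lower and Jun (adjusted p = 0.0268) higher, beside 0.784% and 0.183% of all genes, and Gap43 and Jun each lost the call in 4 of 11 such fits. From day 1 to day 3, 0 of the 17 were called, 2 had an unadjusted p under 0.05 in edgeR, and DESeq2 and limma called 0. The median of the list from day 1 to day 7 was -0.98, but 8 genes lay above 0 and 9 below, so the list did not move as a group.

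Of 6 other genes tied to eye size, 3 were tested, and 1 was called for day 7 against day 1, beside 7.11% of all genes. Egr1, an immediate early transcription factor, was the 1 called, higher on day 7 at 729.1 ± 241.2 CPM (SD, n = 5) against 178.2 ± 60.7 (n = 3), a log2 difference of 2.03 (SE 0.33, edgeR adjusted p = 0.00506, at most 0.0406 over 21 alternatives). Tmem98 and Lrp2, a membrane protein and an endocytic receptor, were not called, with log2 differences of 0.10 and -0.09. In the other 2 comparisons 0 of the 3 were called by edgeR with 1 at an unadjusted p under 0.05 in each; DESeq2 called 1 for day 7 against day 3 and 0 for day 3 against day 1, and limma 0.

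Across the 11 cultures, log2 CPM of Ecel1 and Prss56 had a Pearson correlation of 0.950, a description over points that share their day, library and depth. Prss56 ranked 17 among 17465 genes by likeness to Ecel1, and Ecel1 ranked 4 by likeness to Prss56. By Spearman correlation (0.984) the ranks were 3 and 1. The genes most like Ecel1 were Sprr1a (Pearson 0.982), Grp (0.979), Gm26545 (0.973), Rassf9 (0.969) and Gbp9 (0.962). Those most like Prss56 were Kif21a (0.962), Mfap4 (0.959), Gm42443 (0.954), Ecel1 (0.950) and Man1a (0.945). Chrng reached 0.926 with Ecel1, at rank 52, and 0.863 with Prss56, at rank 140.

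Within cultures, over single cells, the likeness was weak. The Spearman correlation of thinned counts of Ecel1 and Prss56 was 0.162, 0.253 and 0.210 in the day 1 cultures and 0.209, -0.0726 and 0.209 in the day 3 cultures. Its mean was 0.162 ± 0.118 (SD, n = 6). By this measure Prss56 was among the nearest 6.48% of 11626 genes for Ecel1 and Ecel1 among the nearest 1.37% for Prss56, where the median gene stood at 0.0535 and 0.0319. The genes most like Ecel1 were Atp6v0d1 (0.314), Ap2m1 (0.309), Tcn2 (0.299), Aplp1 (0.298) and Acsl4 (0.291), and those most like Prss56 were Cst6 (0.258), Crybg1 (0.252), Higd2a (0.247), Dpy19l4 (0.243) and Nqo1 (0.232). In sparse counts such values are no finding. None of the 5 genes nearest to either member over cultures by Pearson correlation was among its 5 nearest over cells, whereas Nqo1 was the third for Prss56 by Spearman correlation over cultures (0.982) and the fifth over cells.

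Sprr1a, the gene nearest to Ecel1 over cultures, was read in 41 thinned day 1 cells. It shared 30 of these cells with Ecel1 against 23.5 expected from the shares, a ratio of 1.28, and 14 with Prss56 against 11.6 expected, a ratio of 1.21. By culture the ratio with Ecel1 was 1.48, 1.13 and 1.12. Sprr1a was taken for its likeness to Ecel1, so these values are a description.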

How the data were processed

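Expected counts, estimated reads without normalisation, were deposited by the authors in 2 files of 52636 genes; per the submitters' processing notes, STAR 2.5.3a and RSEM 1.3.0 and the build mm10 (GRCm38) were used, with no roles given. Of the values above 0, 10.6% were not whole, and counts were rounded per cell. Identifiers matched GENCODE M21 with version in 93.2% of cases and without in 99.6%. Reads were not stranded, so overlapping or antisense transcripts cannot be told apart.

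Cells with at least 50000 reads, at least 1500 genes and at most 20% mitochondrial reads were retained (711 of 768; 182, 228 and 301 for days 1, 3 and 7), with no doublet caller because cells were picked by hand. Median reads per cell ran from 647980 to 971248 over cultures. The replicate was the culture named in the labels. Counts were summed per culture and fitted in edgeR 4.0.16 (R 4.3.3; TMM, genes kept by filterByExpr on day, quasi-likelihood F-test in a single fit of 11 cultures with day as the term), with Benjamini-Hochberg adjusted p under 0.05 as the call over 17466 genes. limma 3.58.1 and DESeq2 1.42.0 served as alternatives. The script was tested on simulated data. Shares and co-detection used the 695 cells with at least 200000 reads, thinned to that number.

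Named genes were the pair, each neighbour past the filter, each called list gene (or, where none was called, the 2 of highest mean CPM) and the 5 genes most like each member by each measure. The members and lists were chosen with earlier results of these data known. The class with hair cell transcripts, and the alternatives without it or without the top cells, were added after values were seen. Replicate numbers were not used to pair the samples in the main fit.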

Additional observations from a re-analysis of the deposited data

Results flagged for a closer look

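For normally spread values in groups of this size, chance sets 1 sample apart in about 1 of 20 groups, and many groups were examined. That rate does not hold for levels near the floor. Chrnd and Prss22 had reads in only 1 day 7 culture, so any count there would be flagged. Among the 5 day 7 cultures, 1 culture stood apart from the other 4 for each of these levels. Among neighbours of the pair, Gm29055 had 4.26 CPM in culture 2 and Chrnd 0.0294 CPM in culture 4. Among the list genes, Prss22 had 0.0294 CPM in culture 4 and Hspb1 20.5 CPM in culture 5. Among the genes most like Ecel1 over cultures, Gm26545 had 0.108 CPM and Gbp9 0.0542 CPM, both in culture 3, and among those most like Prss56, Mfap4 had 0.723 CPM in culture 3. Among the genes most like the pair over cells, Atp6v0d1 had 50.2 CPM in culture 5 and Nqo1 14.6 CPM in culture 3.

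Among the 6 early cultures, the difference in the share with Ecel1 between cycling and other cells was -20.0 points in day 3 culture 3, against -1.19 to 0.476 points in the other 5. The difference in the share with Prss56 between cells with and without tdTomato was 25.7 points in day 1 culture 2, against 3.69 to 10.0 points in the other 5.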

How the results depend on the processing

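In day means and fitted differences, both genes kept the order day 1 over day 3 over day 7 under each alternative run. Without cells carrying hair cell transcripts, an alternative chosen after seeing the data, the log2 difference of Ecel1 was -3.76 for day 3 against day 1 and -5.55 for day 7 against day 3, and its day 3 level 5.57 CPM. Without the top cell of each culture, also added later, the first was -3.05 and that of Prss56 -5.49, against -3.80, and the day 1 levels were 64.4 CPM for Ecel1 and 31.7 for Prss56. With limma on mean CPM per cell, Ecel1 had -6.04 (day 7 against day 1) and -4.01 (day 7 against day 3) and Prss56 -5.57 and -1.69, on a log2(CPM + prior) scale. In the second file only, the values were -11.3 and -10.3 for Ecel1 and -15.0 and -11.6 for Prss56, where day 7 was 1 culture assumed to vary like the others. That culture had 2 Ecel1 reads and 0 Prss56 reads, so the size of these values lies at the floor and is not a measured fall. Leaving out 1 culture, Ecel1 ranged from -2.18 to -1.11, -9.68 to -8.68 and -8.05 to -6.82 for days 3 and 1, days 7 and 1 and days 7 and 3. Prss56 ranged from -5.39 to -3.32, -8.66 to -7.33 and -4.80 to -2.38.

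Thinned to 50000 reads, the day 1 shares were 44.1% for Ecel1 and 23.7% for Prss56. Observed over expected co-detection on day 1 was 1.36 at 50000 reads and 1.34 without thinning, and on day 7 it was 0 at 50000 reads and 0 without culture 4. Leaving out 1 culture gave 1.301 to 1.33 on day 1, 2.03 to 3.88 on day 3 and 0 to 9.36 on day 7. The shares then ranged over 51.2% to 58.6%, 8.55% to 14.5% and 1.94% to 4.47% for Ecel1 and 25.5% to 29.5%, 3.27% to 5.11% and 0.725% to 2.33% for Prss56. The cycling difference of Prss56 turned to -1.49 points without thinning and to -3.54 without day 1 culture 1 (range -3.54 to 7.21). The others ranged from -4.59 to -0.488 (Ecel1, cycling), 1.60 to 12.2 (Ecel1, tdTomato) and 7.22 to 11.6 (Prss56, tdTomato).

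Of the tested genes, 0.0115% were called for day 3 against day 1, and 1.48% with the DESeq2 Wald test, 0.0495% without a filter, 0.395% with limma, 0.0945% in the second file, 0.126% with a replicate block, 0.0174% without hair cell transcript cells and 0.0174% without top cells. For day 7 against day 1 it was 7.11%, and 13.3% with DESeq2, 4.11% without a filter and 0.656% in the second file. For day 7 against day 3 it was 0.968%, and 3.66% with DESeq2, 0.584% with file as a covariate, 0.105% in the second file and 0.550% with the block. Leaving out 1 culture gave 0% to 0.0288%, 2.39% to 8.02% and 0.189% to 1.01%. Neighbours called for day 7 against day 1 were 2 with DESeq2 and 0 in the second file, with the block or without hair cell transcript cells. For day 7 against day 3 they were 0 with limma, file as a covariate, the second file, the block, or without hair cell transcript cells or top cells, and 0 to 1 leaving out 1 culture. List genes called for day 7 against day 1 were 8, with 4 in the second file and 5 to 10 leaving out 1 culture. For day 7 against day 3 they were 5, with 12 by DESeq2, 1 with file as a covariate, 1 in the second file, 2 with the block and 1 to 5 leaving out 1 culture. The causes were not tested.

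Whether replicate numbers pair the cultures was not settled. Deviations of the 9 same-numbered pairs of cultures correlated at -0.0101 to 0.0614, and those of other pairs at -0.0851 to 0.0716. Of 9 cultures, 5 correlated best with their own number. With the replicate block, the adjusted p of Chrng was 0.0547 and 0.130 (day 7 against day 1 and day 3), of Klk8 0.0956, of Tubb3 0.0956, of Prss22 0.157, of Gap43 0.0866 and of Jun 0.0723, the last 3 for day 7 against day 3. Of the values that leave out 1 culture, 77.3% stayed the same by the rule for their kind, 34 moved, 52 no longer passed and 2 changed direction. The rule was the spread between cultures for the pair and a kept call for single list genes and neighbours. For the cycling and tdTomato tests it was the direction and the side of the threshold. Counts and shares of called genes had to stay within a fixed factor, and a count of 0 in both fits also stayed the same. Day 7 values rest on 42 Ecel1 and 95 Prss56 reads, which limits what differs between cultures of that day.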
